A study of Mus musculus with 4 samples.

Results

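Efferocytosis, the uptake of dying cells by phagocytes, was examined through 10 genes that encode its receptors, its bridging molecules and its engulfment adaptors, in 2 immune cell populations sorted from mouse wounds. The members were Gas6, Pros1 and Mfge8 (secreted bridging molecules), Mertk, Axl, Tyro3, Timd4 and Lrp1 (receptors), and Elmo1 and Dock1 (engulfment adaptors). They were chosen by gene symbol, and the FPKM (fragments per kilobase of transcript length, normalised to library size) of a symbol's transcripts were summed in each population. All 10 symbols were found among the 24358 gene symbols of the expression table, with 15 of its 34535 transcripts. The tested population was CD301b macrophages, a wound macrophage subset that carries the C-type lectin CD301b. It was compared with immune cells negative for F4/80, a surface protein widely used to mark mouse macrophages. Both came from the dermis of 7-week-old male C57/Bl6 mice at day 5 after wounding and were sorted by flow cytometry (FACS), with 2 libraries per population.

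Apoptotic cells expose phosphatidylserine, a lipid that living cells keep on the inner side of their membrane. Gas6 and protein S (the product of Pros1) bridge this lipid to the TAM receptor kinases Tyro3, Axl and Mertk, MFG-E8 (the product of Mfge8) bridges it to integrins of the alpha-v type, and TIM-4 (the product of Timd4) binds it directly. LRP1 takes part in uptake together with calreticulin, and the ELMO1 and DOCK1 proteins together activate the GTPase Rac1, which drives the actin cup around the target. In healing wounds this route is known for the removal of spent neutrophils by macrophages.

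The table gave a transcript 1 FPKM value in each population. The spread between libraries is therefore not known, no error accompanies a value, and depth is unknown. Significance rests on p-values of Cuffdiff in the table the authors deposited, adjusted by the Benjamini-Hochberg method over all tested transcripts. A gene was called higher or lower where at least 1 transcript had an adjusted p of at most 0.05 in that direction, no transcript had it in the opposite direction, and the summed FPKM agreed in sign. Whether separate animals gave the libraries is not stated, so the p-values may reflect technical spread alone. As a check of the sort, Adgre1, which encodes F4/80, was at 557 FPKM in CD301b macrophages and 151 FPKM in F4/80-negative cells. Mgl2, which encodes CD301b, went against the label, at 49.2 FPKM in CD301b macrophages and 103 FPKM in F4/80-negative cells. No population sorted as wound macrophages without CD301b was included. A trait of the CD301b subset and a trait of wound macrophages in general therefore cannot be told apart. F4/80-negative cells also held macrophage transcripts, such as Csf1r at 283 FPKM, against 666 FPKM in CD301b macrophages. C1qa was at 425 FPKM there, against 1530 FPKM in CD301b macrophages. Whether macrophages were among the F4/80-negative cells was not tested.

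Of the 10 members, 3 were higher in CD301b macrophages, 1 was lower and 6 did not pass. Gas6, Mertk and Elmo1 were the higher members and Timd4 the lower. Among all 13039 genes with a tested transcript, 11% were called higher and 6.2% lower, 17.2% in all, beside 4 of the 10 members. Of the 15 member transcripts, 13 were tested and 4 were called, beside 14.2% of all tested transcripts. The median log2 fold over the members, on the log2(FPKM + 1) scale that understates changes of low genes, was 0.10, beside 0.05 over all tested genes, and it was -0.0031 after dividing each population by the level of its median gene, a scaling that multiplies every FPKM in CD301b macrophages by 0.925 (-0.11 in log2 before the pseudocount is added, and less than that in low genes after it). The calls rested on a ligand and receptor pair, an adaptor and a receptor of very low level. In these sorted bulk populations, fewer cells of a type and less RNA per cell cannot be told apart.

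**Figure D1:**
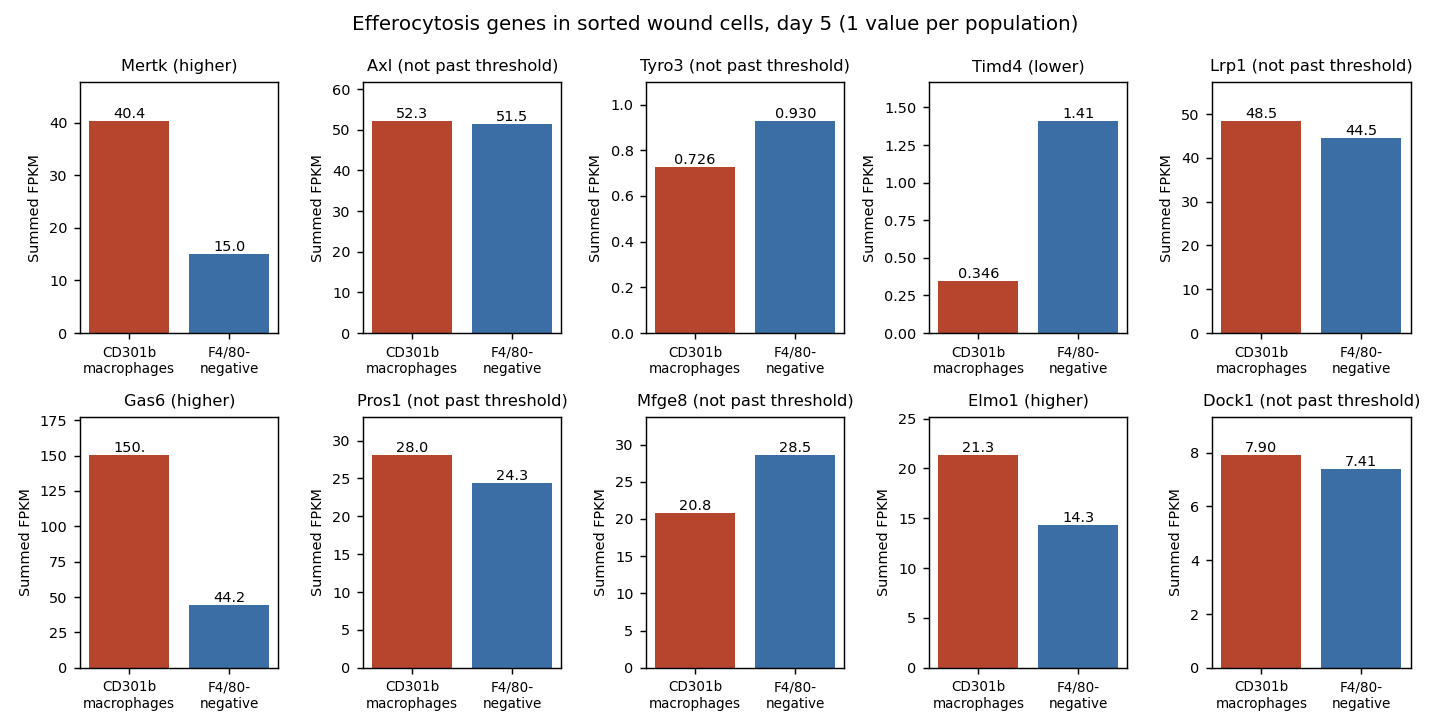
Summed FPKM of the 10 members in CD301b macrophages (red) and F4/80-negative cells (blue), 1 bar per population with no error available, each panel with its own axis from 0. Gas6 (150 FPKM in CD301b macrophages, 44.2 FPKM in F4/80-negative cells) and Mertk (40.4 FPKM in CD301b macrophages, 14.96 FPKM in F4/80-negative cells) show the tallest red bars relative to blue, and Timd4 the reverse (0.346 FPKM in CD301b macrophages, 1.41 FPKM in F4/80-negative cells).

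Gas6 was the most abundant member in CD301b macrophages and had the largest rise. Gas6 (NCBI gene 14456, chromosome 8, 13465374 to 13494535, GRCm38) encodes a vitamin K-dependent protein that activates all TAM receptors. It was at 150 FPKM in CD301b macrophages and 44.2 FPKM in F4/80-negative cells. The difference was 3.40-fold (log2 fold 1.74, adjusted p = 0.000999 by Cuffdiff, the authors' deposited table, at the floor of these p-values). By log2 fold Gas6 stood at rank 71 of the 13039 tested genes. Among the 11964 genes that reached 1 FPKM in at least 1 population, its level was at percentile 95.4 in CD301b macrophages and 85.8 in F4/80-negative cells. Tmem255b, which overlaps Gas6 on the opposite strand over 3100 bases, was at 0.341 FPKM in CD301b macrophages and 0.539 FPKM in F4/80-negative cells. Mertk, Elmo1, Lrp1 and Dock1 overlap other genes too. On the opposite strand, Gm14011 covers 2435 bases of Mertk and Gm32036 covers 28205 bases of Elmo1. None of the genes that overlap Mertk or Elmo1 had a level here.

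Pros1, which encodes protein S, a ligand of Tyro3 and Mertk and a cofactor of anticoagulation, did not pass the threshold. Pros1 (NCBI gene 19128, chromosome 16, 62854307 to 62929346) was at 28.0 FPKM in CD301b macrophages and 24.3 FPKM in F4/80-negative cells (adjusted p = 0.526, Cuffdiff, the authors' deposited table). Gas6 and Pros1 together summed to 178 FPKM in CD301b macrophages and 68.5 FPKM in F4/80-negative cells. Gas6 made up 84.3% of that sum in CD301b macrophages and 64.5% in F4/80-negative cells. Per length, Gas6 was at 5.36 times the Pros1 level in CD301b macrophages and 1.81 times in F4/80-negative cells. These sums and shares have no test of their own.

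Mertk was the TAM receptor that changed. Mertk (NCBI gene 17289, chromosome 2, 128698915 to 128803162) encodes the receptor through which macrophages take up apoptotic cells in many tissues. It was at 40.4 FPKM in CD301b macrophages and 14.96 FPKM in F4/80-negative cells, a 2.70-fold rise (log2 fold 1.37, adjusted p = 0.000999, Cuffdiff, the authors' deposited table) at rank 133 of the tested genes. Axl (NCBI gene 26362, chromosome 7, 25756500 to 25788924), whose receptor is bound by Gas6, was at 52.3 FPKM in CD301b macrophages and 51.5 FPKM in F4/80-negative cells. None of its 3 transcripts passed the threshold (smallest adjusted p = 0.103, Cuffdiff, the authors' deposited table), and its log2 fold of 0.02 turned to -0.09 under scaling to the median gene. Tyro3 (NCBI gene 22174, chromosome 2, 119797740 to 119818104), better known from neurons, was below 1 FPKM in both populations, at 0.726 FPKM in CD301b macrophages and 0.930 FPKM in F4/80-negative cells, and did not pass the threshold (adjusted p = 0.542, Cuffdiff, the authors' deposited table). Its other transcript was listed at 0 in both.

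The shares of the TAM receptors also differed between the populations, without a test. Mertk, Axl and Tyro3 summed to 93.4 FPKM in CD301b macrophages and 67.4 FPKM in F4/80-negative cells. Mertk made up 43.2% of the sum in CD301b macrophages and 22.2% in F4/80-negative cells. Axl made up 56.0% in CD301b macrophages and 76.4% in F4/80-negative cells, so that Axl was the more abundant receptor in both. Summed ligands stood at 1.91 times summed receptors in CD301b macrophages and 1.02 times in F4/80-negative cells. The table holds no values per library, so these shares could not be tested.

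**Figure D2:**
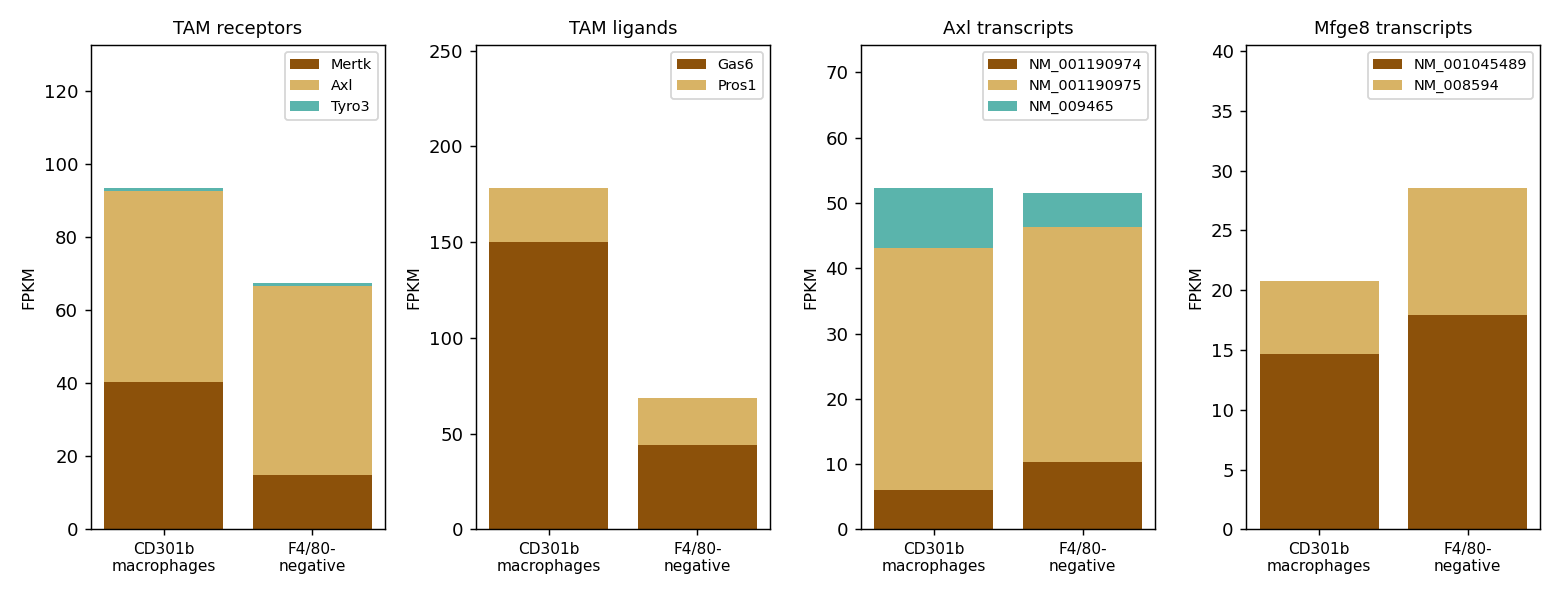
Stacked FPKM in CD301b macrophages (left bar of each panel) and F4/80-negative cells (right bar) for the TAM receptors, their ligands Gas6 and Pros1, the transcripts of Axl and the transcripts of Mfge8, 1 value per population. Mertk and Gas6 take larger parts of their stacks in CD301b macrophages, 43.2% and 84.3%, than in F4/80-negative cells, 22.2% and 64.5%.

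The bases before the starts of Gas6, Mertk and Timd4, the members with the largest folds, are shown because Gas6 and Mertk were higher together and Timd4 lower. Each run is the 250 bases before the start in the RefSeq promoter table of GRCm38.p6, 5′ to 3′ on the gene's strand. For Timd4 that start lies after the gene start given below (46810786), so the last bases of its run fall inside the gene span. Capitals mark the GC box GGGCGG, the ETS core GGAAGT and the MAF core TGCTGA, on either strand.
Gas6, chr8:13494536-13494785, minus strand: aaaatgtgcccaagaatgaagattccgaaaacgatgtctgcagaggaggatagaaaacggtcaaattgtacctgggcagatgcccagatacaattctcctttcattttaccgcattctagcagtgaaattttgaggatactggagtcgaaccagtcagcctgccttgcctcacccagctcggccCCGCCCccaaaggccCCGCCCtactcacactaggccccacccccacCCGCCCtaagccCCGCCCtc
Mertk, chr2:128698665-128698914, plus strand: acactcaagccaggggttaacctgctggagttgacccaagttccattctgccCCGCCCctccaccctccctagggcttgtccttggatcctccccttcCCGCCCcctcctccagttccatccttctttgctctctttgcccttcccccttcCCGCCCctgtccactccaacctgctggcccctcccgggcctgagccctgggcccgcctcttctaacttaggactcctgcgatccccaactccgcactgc
Timd4, chr11:46810549-46810798, plus strand: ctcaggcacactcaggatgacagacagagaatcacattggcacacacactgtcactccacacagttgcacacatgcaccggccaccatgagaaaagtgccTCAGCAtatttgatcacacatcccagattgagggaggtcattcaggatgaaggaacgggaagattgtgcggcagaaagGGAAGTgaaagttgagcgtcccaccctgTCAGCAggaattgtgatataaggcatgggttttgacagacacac
Gas6 held 4 GC boxes and Mertk 3, with no ETS or MAF core in either window. Timd4 held no GC box, 1 ETS core and 2 MAF cores. Over 32851 such windows of all genes, 32.7% held a GC box, 19.7% an ETS core and 16.1% a MAF core. Of the 11 windows of the 10 members, 9 held a GC box, including those of members that did not pass the threshold, such as Axl and Lrp1. The share of G and C was 54.8% in the Gas6 window, 63.6% in Mertk and 50% in Timd4. Its median over all windows was 52.4%, and most member windows lay above that. The GC box shares were not matched for it. The E-box CACGTG and the AP-1 core TGANTCA were also searched on both strands and matched in no member window, against 6.02% and 6.75% of all windows. The TATA box TATAAA matched in 1 member window, of Elmo1, against 12.4% of all windows. None of the motifs matched at overlapping positions in the printed runs, and a match describes letters only.

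Timd4 was the lower member, at a low level in both populations. Timd4 (NCBI gene 276891, chromosome 11, 46810786 to 46844333) encodes TIM-4, a phosphatidylserine receptor known from resident macrophages of mouse body cavities and from some antigen-presenting cells. It was at 0.346 FPKM in CD301b macrophages and 1.41 FPKM in F4/80-negative cells. It was 4.08-fold lower in CD301b macrophages by FPKM, and on the log2(FPKM + 1) scale it fell by 0.84 (adjusted p = 0.000999, Cuffdiff, the authors' deposited table). The mean of its levels lies under 1 FPKM, so the call is lost where only transcripts with a mean of at least 1 FPKM enter the adjustment. Related receptors of the TIM family that were listed alongside were Havcr1, at 0.0869 FPKM in CD301b macrophages and 0.480 FPKM in F4/80-negative cells, and Timd2, listed at 0 in CD301b macrophages and at 0.0207 FPKM in F4/80-negative cells.

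Lrp1 (NCBI gene 16971, chromosome 10, 127538157 to 127621148), a large endocytic receptor, did not pass the threshold. It was at 48.5 FPKM in CD301b macrophages and 44.5 FPKM in F4/80-negative cells (log2 fold 0.12, adjusted p = 0.716, Cuffdiff, the authors' deposited table). In CD301b macrophages only Gas6 and Axl among the members had more FPKM than Lrp1, and in F4/80-negative cells only Axl did. With no spread between libraries, neighbours in that order cannot be ranked beyond error.

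Mfge8, the bridging molecule to integrins, had less FPKM in CD301b macrophages but did not pass the threshold. Mfge8 (NCBI gene 17304, chromosome 7, 79133768 to 79149060) was at 20.8 FPKM in CD301b macrophages and 28.5 FPKM in F4/80-negative cells (log2 fold -0.44, smallest adjusted p = 0.186, Cuffdiff, the authors' deposited table). It has 2 transcripts in the table, which differ by a coding exon. NM_008594 carries a 111-base exon that NM_001045489 lacks, and in mouse this exon is known to encode a proline- and threonine-rich segment between the EGF-like and the lipid-binding domains. The long NM_008594 was at 6.08 FPKM in CD301b macrophages and 10.6 FPKM in F4/80-negative cells (unadjusted p = 0.0504, adjusted p = 0.186, Cuffdiff, the authors' deposited table). The short NM_001045489 was at 14.7 FPKM in CD301b macrophages and 17.9 FPKM in F4/80-negative cells (adjusted p = 0.488, Cuffdiff, the authors' deposited table). The long form made up 29.3% of Mfge8 FPKM in CD301b macrophages and 37.2% in F4/80-negative cells, and the difference in share was not tested.

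Axl also has several transcripts. NM_001190974 lacks a 27-base coding exon that NM_009465 has. It was at 5.97 FPKM in CD301b macrophages and 10.4 FPKM in F4/80-negative cells (unadjusted p = 0.0205, adjusted p = 0.103, Cuffdiff, the authors' deposited table). NM_009465 was at 9.18 FPKM in CD301b macrophages and 5.26 FPKM in F4/80-negative cells (adjusted p = 0.526, Cuffdiff, the authors' deposited table). The most abundant form, NM_001190975, was at 37.1 FPKM in CD301b macrophages and 35.9 FPKM in F4/80-negative cells. NM_001190974 made up 11.4% of Axl FPKM in CD301b macrophages and 20.2% in F4/80-negative cells. GENCODE M21 pairs NM_001190975 and NM_009465 with the same transcript, so what separates these forms was not analysed here. The estimates of forms that share most of their sequence depend on how Cuffdiff split reads among them.

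The alternative coding exons of Axl and Mfge8 are given because they separate NM_009465 from NM_001190974 in Axl and NM_008594 from NM_001045489 in Mfge8. Capitals mark the alternative exon and lower case the 15 bases of the neighbouring exons on either side, from the GENCODE M21 transcripts with the exon, 5′ to 3′ on the minus strand of GRCm38.
Axl exon 10, chr7:25773099-25773125: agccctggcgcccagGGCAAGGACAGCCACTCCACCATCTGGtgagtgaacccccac
Mfge8 exon 4, chr7:79143278-79143388: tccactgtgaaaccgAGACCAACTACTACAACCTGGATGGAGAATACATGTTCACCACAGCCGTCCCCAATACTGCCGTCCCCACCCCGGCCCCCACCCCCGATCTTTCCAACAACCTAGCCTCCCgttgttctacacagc
Both lengths keep the reading frame.

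Elmo1 was higher in CD301b macrophages, by a margin that depended on the threshold, and Dock1 did not pass it. Elmo1 (NCBI gene 140580, chromosome 13, 20090507 to 20608353) encodes the scaffold that couples engulfment receptors to DOCK proteins. It was at 21.3 FPKM in CD301b macrophages and 14.3 FPKM in F4/80-negative cells, a 1.49-fold rise (log2 fold 0.55, adjusted p = 0.0337, Cuffdiff, the authors' deposited table). The call is lost at an adjusted p of 0.01 or when a 1.5-fold difference is also required. Nearly all of it came from NM_080288, and the other transcript, at 0.000243 FPKM in CD301b macrophages and 0.00241 FPKM in F4/80-negative cells, was not tested. Dock1 (NCBI gene 330662, chromosome 7, 134670687 to 135173647), an exchange factor for Rac1, was at 7.90 FPKM in CD301b macrophages and 7.41 FPKM in F4/80-negative cells (adjusted p = 0.794, Cuffdiff, the authors' deposited table). Its log2 fold of 0.08 became -0.02 under scaling to the median gene.

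Among the relatives of the adaptors, Dock2 and Dock5 were called, in opposite directions. Elmo2 was at 22.9 FPKM in CD301b macrophages and 24.4 FPKM in F4/80-negative cells, and Elmo3 was at 0.563 FPKM in CD301b macrophages and 0.675 FPKM in F4/80-negative cells. Elmo1 made up 47.6% of summed ELMO FPKM in CD301b macrophages and 36.3% in F4/80-negative cells. Dock2, the DOCK protein of blood cells, was higher in CD301b macrophages, at 53.4 FPKM against 32.5 FPKM in F4/80-negative cells (adjusted p = 0.00572, Cuffdiff, the authors' deposited table). Dock5 was lower in CD301b macrophages, at 3.32 FPKM against 6.50 FPKM in F4/80-negative cells (adjusted p = 0.000999, Cuffdiff, the authors' deposited table). Dock1 made up 12.2% of the FPKM summed over Dock1, Dock2 and Dock5 in CD301b macrophages and 16.0% in F4/80-negative cells.

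**Figure D3:**
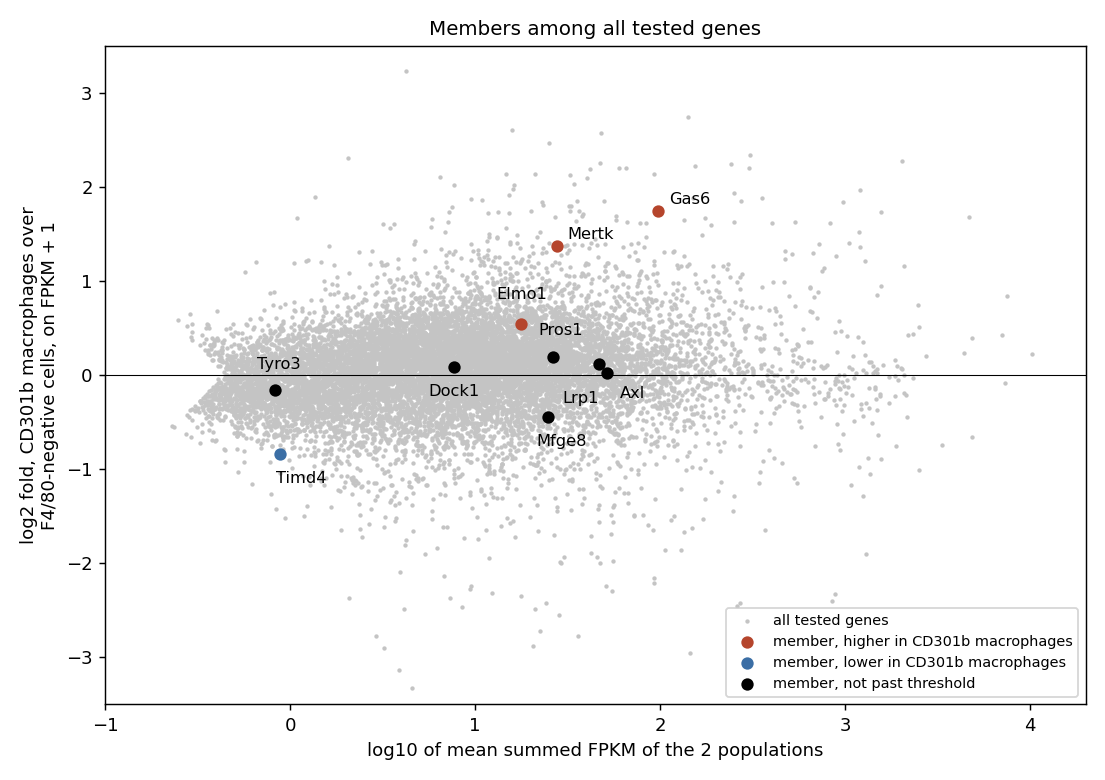
The log2 fold of CD301b macrophages over F4/80-negative cells on FPKM + 1 (vertical) against log10 of the mean summed FPKM (horizontal) for the tested genes (grey) and the 10 members (coloured by call). Of 13039 tested genes, 66 with a log2 fold beyond 3.5 in either direction lie outside the plotted range. Gas6 (1.74) and Mertk (1.37) stand at the upper edge of the cloud, and the 6 members that did not pass lie between -0.44 (Mfge8) and 0.20 (Pros1).

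The levels of cell type markers moved with the populations, and their values are set beside the members. All 8 macrophage markers were higher in CD301b macrophages, with a summed level of 4046 FPKM in CD301b macrophages and 1518 FPKM in F4/80-negative cells, a ratio of 2.67. Their individual ratios ran between 1.78 and 4.89, a range that holds the ratios of Mertk (2.70) and Gas6 (3.40). The ratios of Elmo1 (1.49), Pros1 (1.15), Lrp1 (1.09), Dock1 (1.07) and Axl (1.01) lie below that range. The list of dendritic and Langerhans cell genes held 8, of which 7 were lower in CD301b macrophages and Cd207 did not pass, with a summed level of 58.8 FPKM in CD301b macrophages and 235 FPKM in F4/80-negative cells. Timd4, at only 0.346 FPKM in CD301b macrophages and 1.41 FPKM in F4/80-negative cells, had a ratio of 0.245. It moved in the same direction as the dendritic and Langerhans markers, whose summed ratio was 0.251. The natural killer list had a summed ratio of 0.245, mainly through Klrd1, and the mast cell and basophil list had 0.638. None of the macrophage or dendritic cell markers was at 0 in either population, and the part of either cell type in these results was not tested.

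Fibroblast markers were abundant in both populations. Their 8 genes summed to 4302 FPKM in CD301b macrophages and 6287 FPKM in F4/80-negative cells, led by Col3a1, a fibrillar collagen, at 1401 FPKM in CD301b macrophages and 2356 FPKM in F4/80-negative cells. Of these genes, only Lum was lower in CD301b macrophages and the other 7 did not pass. Their summed ratio was 0.684, beside 0.727 for Mfge8, and none of the fibroblast markers was at 0. Individual ratios of the fibroblast markers ran between 0.595 (Col3a1) and 1.35 (Pdpn). Other lists also had summed ratios below 1, such as 0.749 for keratinocyte markers and 0.836 for endothelial markers. Fibroblasts are known to transcribe Axl, Lrp1, Mfge8 and Gas6 as well, and their part in these levels was not tested. Endothelial markers summed to 67.6 FPKM in CD301b macrophages and 80.9 FPKM in F4/80-negative cells, with none called, and keratinocyte markers to 151 FPKM in CD301b macrophages and 201 FPKM in F4/80-negative cells, with 2 of 8 lower.

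The summed levels of the neutrophil, natural killer and T cell lists differed mainly through 1 gene each. Neutrophil markers summed to 1035 FPKM in CD301b macrophages and 1823 FPKM in F4/80-negative cells, of which S100a8 alone was at 938 FPKM in CD301b macrophages and 1725 FPKM in F4/80-negative cells. The other 6 neutrophil genes measured summed to 97.4 FPKM in CD301b macrophages and 97.9 FPKM in F4/80-negative cells. Of 5 tested neutrophil genes, 2 were lower in CD301b macrophages, S100a8 and Csf3r, and 3 did not pass. Csf3r was at 68.1 FPKM in CD301b macrophages and 71.3 FPKM in F4/80-negative cells. Elane was listed at 0 in both populations, and Ly6g was not analysed here. Natural killer cell markers summed to 10.8 FPKM in CD301b macrophages and 44.1 FPKM in F4/80-negative cells. Klrd1 alone was at 4.18 FPKM in CD301b macrophages and 37.1 FPKM in F4/80-negative cells, and the other 7 genes summed to 6.60 FPKM in CD301b macrophages and 7.03 FPKM in F4/80-negative cells. T cell markers summed to 21.8 FPKM in CD301b macrophages and 8.92 FPKM in F4/80-negative cells, with Cd4 alone at 18.6 FPKM in CD301b macrophages and 4.92 FPKM in F4/80-negative cells. The other 5 T cell genes measured ran the other way, summing to 3.14 FPKM in CD301b macrophages and 3.995 FPKM in F4/80-negative cells, and Trac and Trbc2 were not analysed here. Mast cell and basophil markers summed to 105 FPKM in CD301b macrophages and 164 FPKM in F4/80-negative cells. Without Hdc, which did not pass, their other 7 genes summed to 19.8 FPKM in CD301b macrophages and 56.3 FPKM in F4/80-negative cells, and 5 of the 7 tested mast cell and basophil genes were lower. Platelet markers summed to 1140 FPKM in CD301b macrophages and 435 FPKM in F4/80-negative cells. Nearly all of it came from the chemokine genes Pf4, at 1048 FPKM in CD301b macrophages and 399 FPKM in F4/80-negative cells, and Ppbp, at 90.6 FPKM in CD301b macrophages and 34.7 FPKM in F4/80-negative cells. The integrin gene Itga2b was at 0.512 FPKM in CD301b macrophages and 0.929 FPKM in F4/80-negative cells and did not pass, and Gp9 was listed at 0 in CD301b macrophages.

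**Figure D4:**
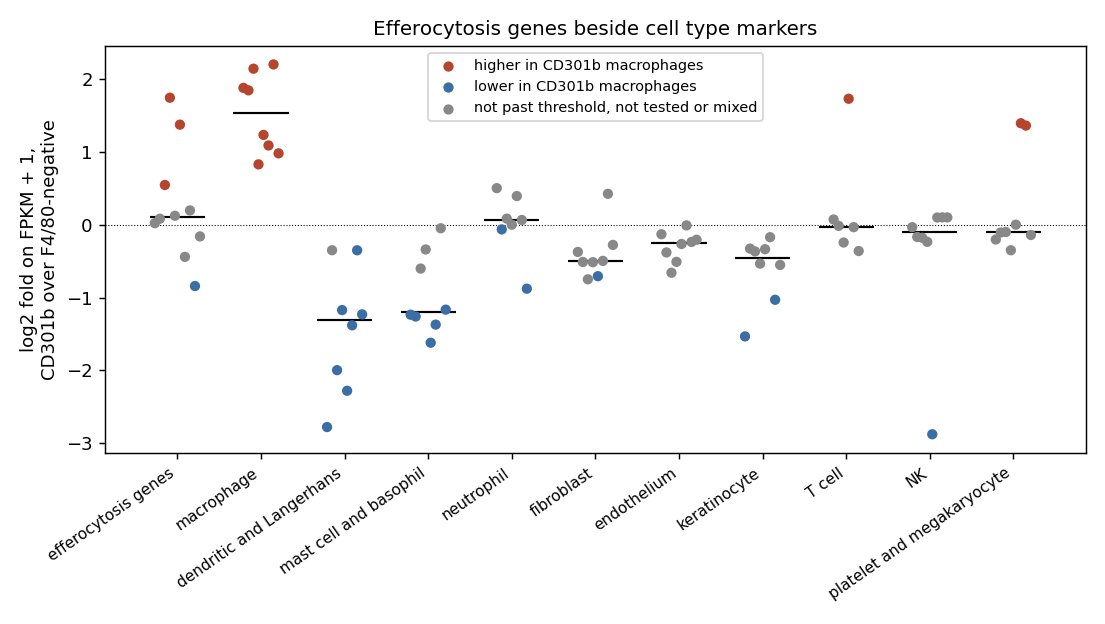
The log2 fold on FPKM + 1 of each gene, CD301b macrophages over F4/80-negative cells, for the 10 efferocytosis genes and 10 lists of cell type markers, 1 point per gene coloured by call, with a line at the median of all genes found. Gas6 (1.74) and Mertk (1.37) fall among the macrophage markers, all of which are higher, and the 6 efferocytosis genes that did not pass lie between -0.44 and 0.20.

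A wider list of 72 efferocytosis genes was examined for its calls. Of 68 with a tested transcript, 20 were higher in CD301b macrophages (29.4%, beside 11% of all tested genes), 8 were lower (11.8%, beside 6.2%), 39 were not past the threshold, and 1 gene, Adam17, had a called transcript that ran opposite to its summed FPKM. The median log2 fold of the tested genes was 0.26, beside 0.05 over all tested genes. Genes of this list given as higher or lower had adjusted p-values from 0.000999 to 0.0262, by Cuffdiff, the authors' deposited table. At an adjusted p of at most 0.01, 18 were higher and 2 lower, and the share over all genes at that threshold was not computed.

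The next group held other phosphatidylserine receptors and the integrin chains that reach the lipid through MFG-E8. Of 11 tested, 4 were higher (36.4%, beside 11% of all tested genes) and 3 lower (27.3%, beside 6.2%). Stab1, which encodes the scavenger receptor stabilin-1, was at 151 FPKM in CD301b macrophages and 33.6 FPKM in F4/80-negative cells. Cd36, a receptor for oxidised lipid, was at 143 FPKM in CD301b macrophages and 82.2 FPKM in F4/80-negative cells. The integrin chains that pair with alpha-v and bind MFG-E8 went opposite ways: Itgb5 was higher at 104 FPKM in CD301b macrophages against 58.8 FPKM in F4/80-negative cells, and Itgb3 lower at 4.34 FPKM in CD301b macrophages against 6.96 FPKM in F4/80-negative cells. The other lower receptors were Havcr2, which encodes TIM-3, at 17.8 FPKM in CD301b macrophages and 28.5 FPKM in F4/80-negative cells, and Cd300lf, at 24.7 FPKM in CD301b macrophages and 41.7 FPKM in F4/80-negative cells. Cd300lb (86.4 FPKM in CD301b macrophages, 72.4 FPKM in F4/80-negative cells) was the most abundant that did not pass.

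Of 14 tested genes of the engulfment machinery, 2 were higher (14.3%, beside 11% of all tested genes) and 3 lower (21.4%, beside 6.2%). Besides Dock2, the GTPase Cdc42 was higher, at 520 FPKM in CD301b macrophages and 324 FPKM in F4/80-negative cells. Besides Dock5, Gulp1, an adaptor of engulfment receptors, was lower at 1.69 FPKM in CD301b macrophages against 2.80 FPKM in F4/80-negative cells, and Bcar1 was lower at 1.64 FPKM in CD301b macrophages against 3.32 FPKM in F4/80-negative cells. Rac1, the GTPase that ELMO1 and DOCK1 activate, was at 232 FPKM in CD301b macrophages and 170 FPKM in F4/80-negative cells and did not pass (adjusted p = 0.126, Cuffdiff, the authors' deposited table).

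Of 13 find-me and opsonin genes, 6 were higher (46.2%, beside 11% of all tested genes) and 1 lower (7.69%, beside 6.2%). The group holds both signals and receptors for them, and Cx3cr1, S1pr1 and P2ry6 among the higher genes encode receptors. All C1q chains, which coat apoptotic cells, were higher. C1qb was at 2409 FPKM in CD301b macrophages against 724 FPKM in F4/80-negative cells, C1qa at 1530 FPKM in CD301b macrophages against 425 FPKM in F4/80-negative cells, and C1qc at 1259 FPKM in CD301b macrophages against 408 FPKM in F4/80-negative cells, with C1qa also a member of the macrophage markers. Cx3cl1, a find-me chemokine, was lower at 0.689 FPKM in CD301b macrophages against 1.72 FPKM in F4/80-negative cells. Thbs1, which encodes thrombospondin-1, was at 679 FPKM in CD301b macrophages and 767 FPKM in F4/80-negative cells and did not pass. Of 4 genes of don't-eat-me signalling, 1 was higher (25%, beside 11% of all tested genes) and 1 lower (25%, beside 6.2%). Sirpa, the receptor of CD47, was higher at 320 FPKM in CD301b macrophages against 186 FPKM in F4/80-negative cells. Cd24a was lower at 40.2 FPKM in CD301b macrophages against 78.5 FPKM in F4/80-negative cells, and Cd47 itself, at 84.0 FPKM in CD301b macrophages and 72.4 FPKM in F4/80-negative cells, did not pass.

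Genes of cargo and lipid handling after uptake were higher in 5 of 13 cases (38.5%, beside 11% of all tested genes) and lower in none (beside 6.2%). Abca1, a cholesterol exporter, was at 128 FPKM in CD301b macrophages and 56.2 FPKM in F4/80-negative cells. Its regulators Nr1h3, which encodes the oxysterol receptor LXR alpha, and Rxra, which encodes the LXR partner, were also higher. Nr1h3 was at 16.2 FPKM in CD301b macrophages and 9.62 FPKM in F4/80-negative cells, and Rxra at 20.7 FPKM in CD301b macrophages and 8.48 FPKM in F4/80-negative cells. Nr1h2, which encodes LXR beta, and Abcg1, another cholesterol exporter, did not pass and are named after their values were seen. Nr1h2 was at 21.7 FPKM in CD301b macrophages and 21.6 FPKM in F4/80-negative cells, and Abcg1 at 30.3 FPKM in CD301b macrophages and 23.9 FPKM in F4/80-negative cells (adjusted p = 0.269, Cuffdiff, the authors' deposited table). Ucp2, a mitochondrial carrier, was at 690 FPKM in CD301b macrophages and 490 FPKM in F4/80-negative cells and did not pass. Among 5 scramblase and flippase genes, 1 was higher (20%, beside 11% of all tested genes) and none lower (beside 6.2%). Ano6 was the higher gene, at 42.5 FPKM in CD301b macrophages against 26.1 FPKM in F4/80-negative cells. Tmem30a was the most abundant that did not pass (39.0 FPKM in CD301b macrophages, 37.8 FPKM in F4/80-negative cells).

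The protease genes Adam10 and Adam17, whose products shed TAM receptors, were not called as genes. Adam10 was at 41.8 FPKM in CD301b macrophages and 29.3 FPKM in F4/80-negative cells (adjusted p = 0.0644, Cuffdiff, the authors' deposited table), and Adam17 at 49.7 FPKM in CD301b macrophages and 44.1 FPKM in F4/80-negative cells. The minor Adam17 transcript NM_001291871 was lower, against that sum, at 0.726 FPKM in CD301b macrophages and 1.74 FPKM in F4/80-negative cells (adjusted p = 0.0134, Cuffdiff, the authors' deposited table). The main Adam17 transcript, NM_009615, was at 45.6 FPKM in CD301b macrophages and 34.9 FPKM in F4/80-negative cells (adjusted p = 0.227, Cuffdiff, the authors' deposited table). Of 6 genes of the LRP1 chaperone and other receptors of the LDL receptor family, 1 was higher (16.7%, beside 11% of all tested genes) and none lower (beside 6.2%). Lrp6, a WNT coreceptor, was the higher gene, at 18.0 FPKM in CD301b macrophages against 7.60 FPKM in F4/80-negative cells. The chaperone gene Lrpap1 was at 32.7 FPKM in CD301b macrophages and 30.5 FPKM in F4/80-negative cells and did not pass.

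**Figure D5:**
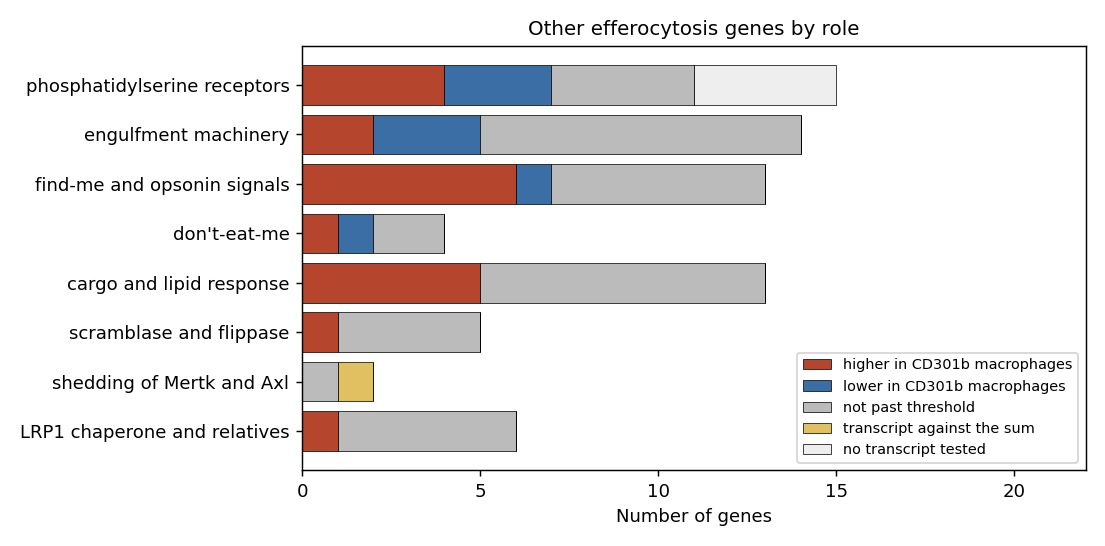
Number of genes of each role group of the wider list (72 genes) that were higher in CD301b macrophages, lower, not past the threshold, with a called transcript against the summed FPKM, or with no tested transcript. The find-me and opsonin group, which also holds receptors for such signals, has 6 higher genes of 13. Cargo and lipid response has 5 of 13, while engulfment machinery has 2 of 14. Among all tested genes, 11% were called higher.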

How the data were processed

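Libraries were prepared from RNA of sorted cells with a TruSeq mRNA protocol, per the labels. The tools TopHat2 2.0.2 and Cuffdiff 2.0.2, and mm9 as the build, are named per the submitters' processing notes. Of the accessions found in RefSeq GRCm38.p6 (97.1% of the transcripts), 99.2% lay over the same gene in GRCm38, the build that the table's loci follow. Gene positions given are those of RefSeq in GRCm38, 1-based. The sources used here give no counting or strand setting, nor how the authors combined 2 libraries into 1 value.

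The FPKM deposited by the authors are per transcript and population, and the unadjusted p-value deposited by the authors has a lower limit of 5e-05. Benjamini-Hochberg adjustment over the 16921 tested transcripts matched the deposited calls in all cases (2408 calls). Symbols turned into dates (56 transcripts) were restored through their accession. FPKM were summed per symbol, with ratios of sums and log2 folds at a pseudocount of 1 FPKM. A gene's adjusted p is the smallest among its tested transcripts and is no test of the sum. The call rule was run on simulated data in which only changed genes could be called, so that run does not measure false calls. All transcripts of a changed gene moved together there, so genes with transcripts in opposite directions were not covered.

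The members, the wider list, the markers and the motifs were chosen with earlier results of these data known. From each role group of the wider list, up to 3 called genes per direction with the highest mean FPKM and the most abundant uncalled gene were named. Rubcn was matched through an older symbol. Of the member transcripts' 50-base words, 0.167% in Elmo1 and 0% in each other member occurred in another gene's GENCODE M21 transcripts. Alternatives covered the call rule, thresholds, filters, pseudocounts and scaling. Python 3.11.15, pandas 2.3.3, numpy 2.4.6 and matplotlib 3.10.9 were used.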

Additional observations from a re-analysis of the deposited data

How the results depend on the processing

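Scaling to the median gene turned the direction of 2 of 10 member folds, Axl (-0.090) and Dock1 (-0.018), neither past the threshold, and taking the transcript with the highest mean FPKM turned 0 of 10. The other settings could not turn a fold or left it as it was. The scaling also took the members' median log2 fold to -0.0031. That median was 0.11 with a pseudocount of 0.1 or 0.5 FPKM and 0.12 over members at 1 FPKM or more, the last because fewer genes enter. The higher members numbered 2 at an adjusted p of at most 0.01 or with a 1.5-fold minimum, without Elmo1. The lower members numbered 0 when the adjustment kept transcripts with a mean of at least 1 FPKM, since Timd4 then is not tested. In the wider list, 2 genes were lower at an adjusted p of at most 0.01, against 8 at 0.05, and 18 were higher, against 20. A stricter threshold can only lower such counts. The counts over all genes at 0.01 were not computed, so whether the unequal loss is particular to this list is not known. No paired analysis was possible because the table holds 1 value per population, and leaving out replicates was not run for the same reason. Depth is unknown, and with it the precision of low members such as Timd4 and Tyro3.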

Other observations

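The remaining called genes of the wider list, described here after their values were seen, were all higher in CD301b macrophages. The naming rule had already taken in every lower gene, so their direction was fixed by that rule. P2ry6, which encodes a receptor for UDP that promotes phagocytosis in microglia, was at 111 FPKM in CD301b macrophages and 41.3 FPKM in F4/80-negative cells. S1pr1, a receptor for the find-me lipid sphingosine 1-phosphate, was at 33.4 FPKM in CD301b macrophages and 14.6 FPKM in F4/80-negative cells. Cx3cr1, the receptor of the chemokine encoded by Cx3cl1, was at 26.4 FPKM in CD301b macrophages and 13.7 FPKM in F4/80-negative cells. Il10, which encodes an anti-inflammatory cytokine, was at 15.2 FPKM in CD301b macrophages and 6.19 FPKM in F4/80-negative cells. Scarf1, a scavenger receptor of apoptotic cells, was at 7.82 FPKM in CD301b macrophages and 3.79 FPKM in F4/80-negative cells, and Rubcn, which encodes the LC3-associated phagocytosis protein Rubicon, at 10.4 FPKM in CD301b macrophages and 6.09 FPKM in F4/80-negative cells. The largest adjusted p among these genes was 0.00458 (Rubcn, Cuffdiff, the authors' deposited table with Benjamini-Hochberg adjustment). Of the listed genes with no tested transcript, Stab2, Adgrb1, Timd2 and Megf10, the highest value was 0.103 FPKM, for Stab2 in CD301b macrophages.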
